A study of Mus musculus with 12 samples.

Results

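Macrophages that had lost Dicer1, which encodes the RNase that releases mature microRNAs from their hairpins, were exposed to lipopolysaccharide (LPS), a cell wall component of gram-negative bacteria, and their messenger RNA was sequenced. The response is described across all genes, from the 6 Dicer KO libraries among the 12 of the study, 3 with LPS and 3 with vehicle. The cells were bone marrow cells of male C57BL/6 mice, grown into macrophages over 7 days in medium holding 30% supernatant of L929 cells, a source of M-CSF. The Dicer KO mice were LysMcre/+;Dicerfl/fl;ApoE-/-, so they carried a Cre recombinase driven from the lysozyme M locus, floxed copies of Dicer1 and no functional Apoe. All cells were moved to serum-free medium, received diluted ethanol overnight and were then given D-PBS (vehicle) or LPS for 6 h, at a concentration that the labels write as 100 ng/ul. The control libraries, 3 with each treatment, are titled LysMcre/+;Dicer+/+;ApoE-/-, while a second field of the labels calls them wildtype. All groups thus lacked Apoe and had the ethanol. The control libraries are used below to ask where the responses of the genotypes differ. They also enter the shared fit behind every p-value, where they bear on the gene filter, the scaling and the estimate of spread. LysM-Cre acts in myeloid cells as they mature, so some cells of a culture can keep Dicer1. The labels do not say that the replicates came from separate mice, and the p-values measure only the spread between these samples, which may be technical.

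LPS is held by CD14 and MD-2 and signals through Toll-like receptor 4 (TLR4). The adaptor MyD88 leads to NF-kappaB and to the first wave of cytokine genes, while the adaptor TRIF leads to IRF3, interferon beta and, through the interferon receptor and STAT factors, to interferon-stimulated genes. Later in the response macrophages make inhibitors of these pathways, change their metabolism and stop dividing. MicroRNAs such as miR-155 and miR-146 are known to tune several of these steps, and their maturation requires Dicer.

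Between 16172600 and 18785476 reads were assigned to genes in each of the 6 Dicer KO libraries, and 13837 genes had enough reads to be tested. Levels are given as CPM, read counts scaled to a common library size, here adjusted with TMM factors, which set the typical gene near no change. The first principal component of the 6 libraries held 94.9% of the variance and separated LPS from vehicle. Vehicle replicate 2 stood apart from the other vehicle libraries, with a chi-square per degree of freedom of 11.1 and 7.87 against them and 2.21 between the other two. LPS replicate 1 stood apart to a lesser degree, at 3.94 and 4.74 against the other LPS libraries and 1.30 between those, and without it 5017 genes were higher and 5726 lower. Dicer1 itself was at 20.1, 19.7 and 19.4 CPM in the vehicle libraries and at 15.9, 14.3 and 16.3 CPM in the LPS libraries, against means of 43.6 and 49.3 CPM in the control groups, and reads outside the floxed part count toward these values. Apoe, the gene that all 4 groups lack by label, still had reads, at 6.14, 4.94 and 5.74 CPM with vehicle and 1.50, 1.13 and 0.979 CPM with LPS. Lyz2, the lysozyme M gene that the Cre allele interrupts and a macrophage marker, was low, at 15.6, 12.7 and 13.9 CPM with vehicle and 16.1, 20.6 and 19.9 CPM with LPS (higher with TMM and lower, by -0.33 on the log2 scale, with library totals), and the 10 macrophage markers summed to 7191 to 8032 CPM with vehicle and 10163 to 10359.6 CPM with LPS. The lists of markers of other cell types held genes with and without reads. Ebf1, Ncr1, Hba-a1, Lum and Emcn had no count in any of the 6 libraries, while no neutrophil or dendritic cell marker was at 0 in all of them. The 11 neutrophil markers summed to 132 to 174 CPM with vehicle and 189 to 219.6 CPM with LPS (4 higher and 2 lower of 10 tested), and the 6 megakaryocyte markers, nearly all Pf4 (log2 fold change -0.44 with library totals), to 67.4 to 75.4 and 81.4 to 96.3 CPM. The 8 dendritic cell markers went from between 420.4 and 512 CPM to between 971 and 989 CPM, nearly all of it from Bst2, which interferon also induces. Of 3 tested, 3 were higher. Xcr1 was at 0.772 to 2.23 CPM with vehicle and 6.10 to 7.96 CPM with LPS, and Ccr7 at 0.653 to 0.884 and 9.01 to 9.11 CPM. The 7 endothelial markers went from between 115 and 129.9 CPM to between 244 and 282 CPM, with 3 higher and 1 lower of 4 tested. Pecam1 was at 0.839 to 1.21 and 12.1 to 12.8 CPM and Cdh5 at 0.560 to 0.926 and 2.03 to 2.55 CPM. Vwf fell from between 68.2 and 73.1 CPM to between 15.2 and 16.2 CPM. Pf4, Bst2, Xcr1, Ccr7, Pecam1, Cdh5 and Vwf and the markers named in the rest of this paragraph were chosen after their values were seen. The stromal receptor gene Pdgfrb was at 0.206 to 0.746 CPM with vehicle and 33.4 to 36.6 CPM with LPS. The lymphocyte kinase gene Lck was at 0.140 to 0.566 and 33.9 to 36.9 CPM, and the endothelial receptor gene Kdr at 40.1 to 58.9 and 213 to 252 CPM. Other members of the stromal and lymphocyte lists did not rise with them. Cd4 fell from between 7.26 and 8.60 CPM to between 3.39 and 4.06 CPM. Cd3d, Cd3e and Cd3g were at 0.0933 CPM or less in every library, and Col1a1, Col1a2 and Col3a1 at 0.376 CPM or less. Whether other cells had a part in these changes was not tested.

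The response was broad. An adjusted p under 0.05 was reached by 5173 genes higher with LPS (37.4%) and 5905 genes lower (42.7%), from edgeR's quasi-likelihood test with Benjamini-Hochberg adjustment. A change of at least 2-fold besides was seen for 2615 genes higher (18.9%) and 3220 lower (23.3%). With only the Dicer KO libraries in the fit, 5184 genes were called higher and 5610 lower at any size of change. The 1295 genes that rose 4-fold or more held 6.33% of the gene counts of the vehicle libraries and 33.9% of those of the LPS libraries, and the 5905 genes called lower went from 39.6% to 13.4%. The balance of the calls depended on the scaling. When the counts were divided by the plain library totals in place of TMM, every log2 fold change shifted down by about 0.75, the median over all tested genes went from -0.10 to -0.85, and 2638 genes were called higher (19.1%) and 9623 lower (69.5%). Small rises therefore turn into falls on that scale, and such cases are named below. Changes of more than 2-fold are larger than this shift and so keep their direction. Their number still depended on the scaling, with 1514 genes higher and 6130 lower at 2-fold or more with library totals. In the groups of genes below, counts are to be read against 37.4% higher and 42.7% lower among all genes tested. Bulk libraries of this kind do not tell less RNA per cell from fewer cells.

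**Figure D1:**
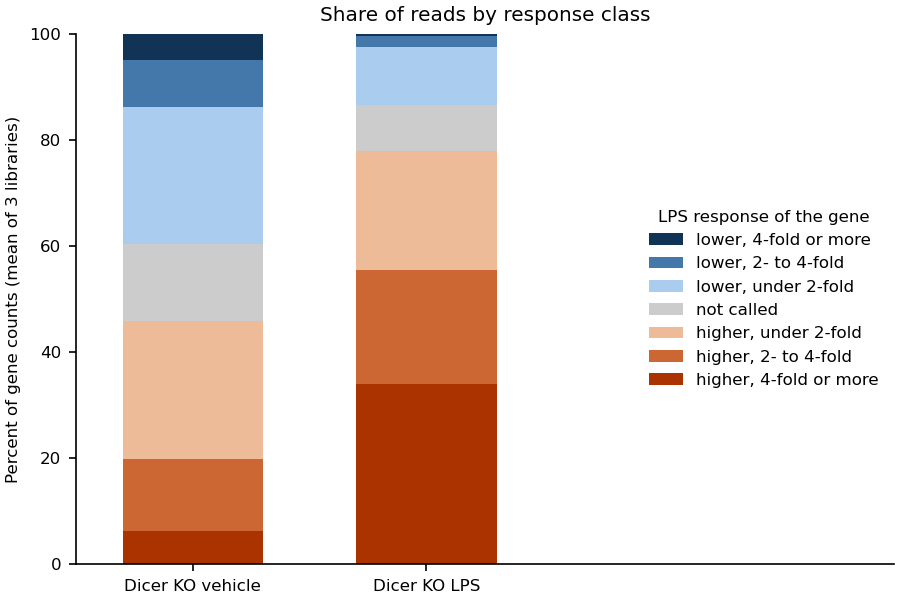
Share of all gene counts (percent, mean of 3 libraries) held by genes of each class of LPS response in Dicer KO macrophages, with vehicle and with LPS. Genes that rose 4-fold or more went from 6.33% to 33.9% of the counts, and the lower classes shrank. The shares of genes called higher by under 2-fold (26.0% to 22.5%) and of genes not called (14.5% to 8.57%) shrank as well.

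The 15 largest rises, taken by fitted log2 fold change among genes at 5 CPM or more with LPS, were mostly in genes with few or no vehicle reads. Such a ranking places genes of no vehicle count high by construction, and only a lower bound on their fold is known. Cd38, an enzyme that consumes NAD+, had no count in the vehicle libraries and stood at 147, 147 and 145 CPM with LPS, at least 3049-fold higher against a floor of 3 counts over the 3 vehicle libraries. Steap4, a metalloreductase, also went from no count to 75.2, 92.5 and 97.5 CPM, at least 1838-fold higher. Ptx3, the secreted pattern recognition protein pentraxin 3, reached 46.2, 45.5 and 44.6 CPM from no count, at least 945-fold higher. The protease inhibitor gene Serpinb2 and the plasminogen activator gene Plat were in the same group. Serpinb2 went from 1 count in 3 libraries to 49.6 ± 4.01 CPM (SD, n = 3), and Plat from no count to 10.7 ± 1.92 CPM. The acute-phase gene Saa1 went from no count to 13.6 ± 0.707 CPM, in a family of close copies whose reads can be shared. Col27a1, a collagen chain, Ifitm7 and the vesicle sensor Syt7 had no count with vehicle either and were at least 686-fold, at least 302-fold and at least 199-fold higher. Genes with more vehicle reads could rise by more than the lower of these bounds without entering the 15, as Saa3 did, from 8.20 to 7618 CPM. Slamf1, a lymphocyte and macrophage surface receptor, went from 0.0622 ± 0.108 to 163 ± 13.8 CPM, and Il6, Edn1, Nos2 and Ptgs2, also among the 15 largest rises, are described below. Only genes whose LPS and vehicle libraries did not overlap were eligible for this ranking, so their separation is part of the selection and not a result.

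Among the genes with the largest falls, Rasgrp3, a Ras activator, went from 49.8, 62.4 and 50.9 to 0.150, 0.375 and 0.226 CPM. Angptl4, an inhibitor of lipoprotein lipase, was at 10.7, 8.85 and 10.2 CPM with vehicle and had no count with LPS, at least 133-fold lower against the floor of 3 counts over the 3 LPS libraries. Lpin1, a phosphatidate phosphatase of lipid synthesis, fell from 21.7 ± 0.639 to 0.250 ± 0.114 CPM and St6gal1, a sialyltransferase, from 89.1 ± 3.74 to 1.08 ± 0.188 CPM. The transcription factor gene Sox4 fell from 19.4 ± 3.79 to 0.100 ± 0.115 CPM, with 54.6% of its exon length overlapped by exons on the other strand, from which unstranded counts cannot be told apart. Engase, Tmem154, Arhgap19, Susd3 and Nectin1 also belong to the 15 largest falls, with log2 fold changes of -6.77, -6.18, -6.17, -5.97 and -5.87. The other 5 of the 15, which ranked between 4 and 10 by size of the fall, rest on 2 or 3 counts over the LPS libraries. The ratio was 130 for Vash2, with an exact 95% counting interval of 35.8 to 1079, and 127 for Etl4 (34.9 to 1053). It was 113 for Pald1 (31.0 to 936), 100.2 for Bmyc (27.5 to 831, with 62.8% of its exons overlapped on the other strand) and 90.5 for Dnah11 (30.7 to 440.4).

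A ranking by level per kilobase of exon, chosen after the values were seen, shows what the stimulated cells made most of. With vehicle, the leading genes were Ftl1, the ferritin light chain, at 4907 CPM per kb (a gene with close copies and with 26.5% of its exons overlapped on the other strand), Psap, the lysosomal activator precursor prosaposin, at 4896, B2m, the invariant chain of MHC class I, at 4642, and Ctsd, a lysosomal protease, at 3973 CPM per kb. With LPS, B2m led at 9325 CPM per kb, followed by Rsad2, the antiviral enzyme viperin, at 5947, the chemokine gene Ccl5 at 5907 and Actb, cytoskeletal actin, at 5449 CPM per kb. Ccl5 stood at rank 1893 of 11479 genes with vehicle and at rank 3 with LPS, and Acod1 went from rank 887 to rank 6. Saa3, an acute-phase protein gene, went from rank 6981 to rank 13, with 9.49, 5.15 and 9.98 CPM in the vehicle libraries and 7229, 7784 and 7841 CPM in the LPS libraries.

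Genes of the TLR4 receptor complex and its adaptors changed in both directions. Of 24 members, 17 rose and 5 fell, with a median log2 fold change of 0.76, and the counts became 11 and 11 with library totals (median 0.01). Tlr4 itself was lower in every LPS library, at 142, 147 and 144 CPM with vehicle and 44.5, 42.3 and 45.5 CPM with LPS, a log2 fold change of -1.71 ± 0.07 (SE, adjusted p = 1.34e-13). Irak1, a kinase downstream of MyD88, fell from 92.8 ± 0.323 to 45.7 ± 1.41 CPM, and Tab1, a partner of the kinase TAK1, from 24.5 ± 1.77 to 14.4 ± 1.14 CPM. Ticam2, which encodes the adaptor TRAM, and Map3k7, the TAK1 gene, completed the 5 lower members with smaller log2 fold changes of -0.29 ± 0.12 (adjusted p = 0.0363) and -0.18 ± 0.05. Neither was called with RLE factors, the scaling that DESeq2 uses (adjusted p = 0.118 and 0.0600), and leaving out any Dicer KO library but vehicle replicate 2 ended the call for Ticam2. So did an edgeR fit of only the Dicer KO libraries (adjusted p = 0.0740). The adaptor gene Myd88 went from 112, 105 and 109 to 469, 471 and 468 CPM, and the kinase gene Irak2 from 93.3 ± 6.06 to 414 ± 17.5 CPM. Peli1, a ubiquitin ligase of the IRAK complex, rose 11.5-fold and Irak3, a pseudokinase that inhibits the pathway, 8.52-fold. Among these named genes, all picked from called members, the LPS and vehicle libraries of Ticam2 overlapped.

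NF-kappaB subunits and inhibitors rose nearly as a whole, with 16 of 17 members higher and none lower, 14 of them at least 2-fold. Their median log2 fold change was 2.61 (1.86 with library totals, which left 14 higher and 1 lower). The inhibitors led. Nfkbia, which encodes the inhibitor IkBalpha and is itself an NF-kappaB target, was at 57.2, 59.1 and 56.7 CPM with vehicle and 1103, 1100.0 and 1118 CPM with LPS, a log2 fold change of 4.26 ± 0.06 (adjusted p = 8.79e-21). Tnfaip3, the ubiquitin-editing inhibitor A20, rose from 55.4, 46.4 and 54.0 to 1950.5, 2046 and 2049 CPM, 38.8-fold. Tnip3, an A20-binding protein, rose 23.8-fold and Nfkbie, a further IkB, 14.4-fold. Nfkb2, the subunit of the noncanonical pathway, rose 14.6-fold.

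The sequence before the start is shown for a few genes that rose, printed 5′ to 3′ for the 250 bases before the start site. It was taken from RefSeq promoter windows on GRCm38.p6. For 4163 symbols there was more than 1 window, and the first was used. The genes were picked and every window shown holds a match, so they do not stand for the other genes that rose. Capitals mark matches on either strand to a kappaB-like motif, GGNNTTTCC, or an interferon response element, GAAANNGAA. The motifs were counted separately, and no match to one overlapped a match to the other in the windows shown. In 27025 windows of 300 bases, from 250 before to 50 after a start, the first motif was found in 5.72% and the second in 8.57%. These rates are given for scale, and whether the motifs are more common near genes that rose was not tested. Windows were at hand for 13 of the 17 NF-kappaB genes and for 38 of the 50 interferon-stimulated genes named below, less than 80% of each, so no share is given for the lists and a check over them would be void. The windows are chr12:55492648-55492897 on the minus strand, chr10:19015411-19015660 on the minus strand, chr5:30012864-30013113 on the plus strand, chr5:92348890-92349139 on the minus strand and chr16:10785537-10785786 on the minus strand.
Nfkbia: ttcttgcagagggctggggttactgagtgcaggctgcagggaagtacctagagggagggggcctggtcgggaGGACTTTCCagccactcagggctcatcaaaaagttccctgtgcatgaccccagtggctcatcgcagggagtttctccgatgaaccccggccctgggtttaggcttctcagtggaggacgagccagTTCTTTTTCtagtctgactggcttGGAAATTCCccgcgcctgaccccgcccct
Tnfaip3: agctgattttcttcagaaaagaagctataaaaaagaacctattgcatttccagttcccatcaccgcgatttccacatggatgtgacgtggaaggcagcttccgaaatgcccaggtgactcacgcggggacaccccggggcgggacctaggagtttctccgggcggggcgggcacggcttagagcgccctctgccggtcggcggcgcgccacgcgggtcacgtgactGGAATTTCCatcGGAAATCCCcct
Il6: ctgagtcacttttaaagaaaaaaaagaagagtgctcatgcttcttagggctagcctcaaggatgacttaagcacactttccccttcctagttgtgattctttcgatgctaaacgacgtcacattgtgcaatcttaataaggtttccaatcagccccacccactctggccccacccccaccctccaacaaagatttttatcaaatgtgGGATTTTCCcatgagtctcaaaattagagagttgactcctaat
Cxcl10: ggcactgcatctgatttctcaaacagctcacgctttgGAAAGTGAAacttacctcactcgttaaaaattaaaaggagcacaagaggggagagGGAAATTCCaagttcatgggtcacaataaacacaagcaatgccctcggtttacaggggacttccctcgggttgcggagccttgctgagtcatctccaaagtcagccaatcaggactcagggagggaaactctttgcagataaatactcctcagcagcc
Socs1: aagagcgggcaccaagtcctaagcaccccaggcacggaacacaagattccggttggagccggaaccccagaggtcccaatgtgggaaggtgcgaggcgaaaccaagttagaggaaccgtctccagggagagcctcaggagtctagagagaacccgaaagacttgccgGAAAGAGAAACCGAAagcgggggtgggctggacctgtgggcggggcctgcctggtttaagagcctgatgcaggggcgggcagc
Counted from the start site to the first base of each match, Nfkbia holds kappaB-like matches at -178 and -29 and an interferon-type match at -53. Tnfaip3 holds kappaB-like matches at -24 and -12, and Il6 holds 1 at -43. Cxcl10 has an interferon-type match at -213 and a kappaB-like match at -158, and Socs1 has 2 interferon-type matches, at -83 and -77, which overlap at their ends. A match of letters is a description and does not show that a factor bound there.

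Inflammatory cytokine genes rose strongly. Of 21 tested, 20 were higher and none lower, with a median log2 fold change of 6.43. The median was 6.05 with the genes of no vehicle count held at the bound set by 3 counts. Il6 had no count in the vehicle libraries and stood at 49.4, 55.5 and 59.2 CPM with LPS, at least 1137-fold higher. Il1b, the precursor of interleukin 1 beta, was at 4.98, 1.65 and 4.76 CPM with vehicle, lowest in replicate 2, and at 1723, 1944 and 1923 CPM with LPS, a log2 fold change of 8.92 ± 0.40. Tnf went from 35.0, 36.7 and 36.7 to 1421, 1555 and 1558 CPM, 41.8-fold. Edn1, the vasoconstrictor endothelin 1, went from 0.0776 ± 0.0968 to 363 ± 34.1 CPM. Both chains of interleukin 27 rose, Il27 by 71.7-fold and Ebi3 by 14.3-fold, the latter with 23.4% of its exons overlapped on the other strand. Osm, the single member not called and named for that, was at 5.24 and 4.66 CPM, and with library totals it was called lower (-0.91, adjusted p = 4.00e-05). Il33, Lif and Csf2 had too few reads for a test, at most 10 counts over 3 libraries.

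Of 19 tested chemokine genes, 18 rose, all by at least 2-fold, and Ccl6 was lower, with a median log2 fold change of 4.44. Cxcl10, a ligand of the receptor CXCR3, was at 172, 79.7 and 149 CPM with vehicle and 7714, 7407 and 7325 CPM with LPS, 55.9-fold, and its vehicle level was again lowest in replicate 2. The other CXCR3 ligands, Cxcl9 and Cxcl11, rose 662-fold and 298-fold, Cxcl11 with 41.7% of its exons overlapped on the other strand. Ccl5 went from 21.7, 13.1 and 24.6 to 5798, 5603 and 5610.4 CPM, and Ccl8, a monocyte attractant, from 0.417 ± 0.140 to 51.3 ± 2.87 CPM. Ccl9 was already at 703 CPM with vehicle and rose 4.57-fold. Ccl6, at 99.4 and 82.4 CPM, had a log2 fold change of -0.27 ± 0.09 (adjusted p = 0.0147), a call that was lost with DESeq2, with its size factors (-0.19 in both) and without vehicle replicate 1 (-0.20) or LPS replicate 3 (-0.22).

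**Figure D2:**
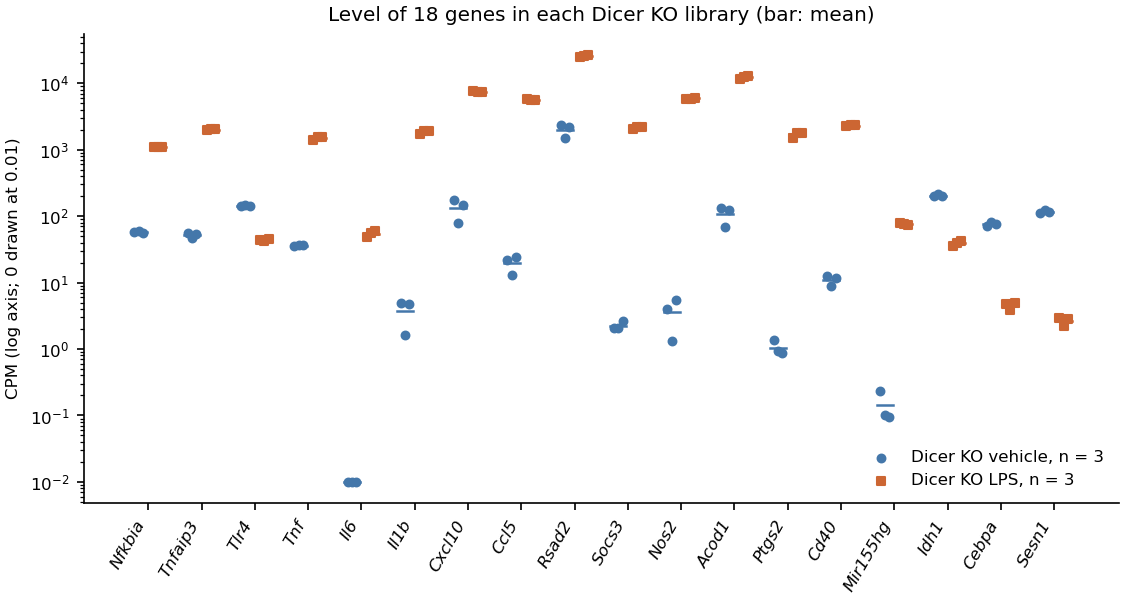
Level of 18 genes in each of the 6 Dicer KO libraries in CPM on a log axis, with vehicle (circles) and LPS (squares), and a bar at the mean of 3 libraries; libraries with no count are drawn at the lower edge. Tlr4, Idh1, Cebpa and Sesn1 are the genes shown that are lower with LPS, and the others are higher.

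Interferon-stimulated genes rose without exception in the list of 50, and 47 of them rose at least 2-fold, with a median log2 fold change of 2.02. With library totals 49 were higher and none lower. Ifi205, a nucleic acid sensor of the PYHIN family, rose from 29.9, 15.5 and 32.0 to 2209, 2345 and 2318 CPM, 88.4-fold. Gbp5, a GTPase that helps build inflammasomes, rose from 87.9, 41.3 and 74.0 to 4126, 4020.3 and 4082 CPM. Both families hold near-identical copies that can share reads. The vehicle level of the list was high from the start, at 15831 to 22124 CPM summed over the 50 genes in the 3 vehicle libraries, lowest in replicate 2, and at 111889 to 113768 CPM in the LPS libraries. The sensor gene Ifih1, which encodes MDA5, rose 7.98-fold and Eif2ak2, the kinase PKR, 3.18-fold. Rsad2 reached 24663, 26100.2 and 26572 CPM from 2350.3, 1509.9 and 2187 CPM. Without vehicle replicate 2 all 50 remained higher, with a median of 1.88.

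The interferon genes and signalling factors above them changed less evenly, with 16 of 19 tested members higher and 2 lower (median 1.61). Ifnb1, interferon beta, had few reads, at 0.512, 0.154 and 0.233 CPM with vehicle and 2.03, 2.25 and 1.73 CPM with LPS, a log2 fold change of 2.69 ± 0.35 (adjusted p = 2.01e-06). Jak2, a kinase of cytokine receptors, rose from 62.5 ± 7.09 to 1445 ± 12.3 CPM and Stat3, the factor downstream of interleukins 6 and 10, from 129.7 ± 4.97 to 1396 ± 36.6 CPM. The interferon alpha and beta receptor chains rose, Ifnar1 by 3.05-fold and Ifnar2 by 4.19-fold. Ifngr1, a chain of the interferon gamma receptor, fell from 152 ± 9.46 to 56.1 ± 3.79 CPM. Irf4, a factor linked to alternative activation, fell from 3.98 ± 0.622 to 0.651 ± 0.0861 CPM.

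Feedback inhibitors rose in 22 of 26 cases and fell in 3, with a median log2 fold change of 3.02 (2.27 with library totals). Socs3, an inhibitor of interleukin 6 signalling, had one of the steepest rises, from 2.09, 2.06 and 2.61 to 2062, 2179.9 and 2220.1 CPM. Socs1, which blocks JAK kinases, rose from 4.42, 3.29 and 4.15 to 148, 124 and 119 CPM. Il10, the main anti-inflammatory cytokine, was at 4.93, 3.19 and 5.13 CPM with vehicle and 112, 97.6 and 89.7 CPM with LPS, 22.4-fold. Phosphatases of MAP kinases moved in opposite directions. Dusp2 rose 248-fold, Dusp1 14.7-fold and Dusp16 18.3-fold, while Dusp6 fell 4.03-fold and Dusp4 2.18-fold. Zc3h12a, the RNase regnase 1, rose 10.9-fold. Zfp36l1, an RNA-binding protein that promotes decay of AU-rich messages, fell from 148, 112 and 134 to 11.9, 7.81 and 6.85 CPM, with 55.9% of its exons overlapped on the other strand.

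Immediate-early and AP-1 factors moved in both directions at 6 h, with 13 of 26 higher, 8 lower and 5 not called, and with library totals 12 higher and 11 lower. Batf, an AP-1 partner of IRF factors, rose from 2.60 ± 0.632 to 166 ± 5.63 CPM and Batf2 from 16.5 ± 2.39 to 384 ± 11.5 CPM. Cebpb, a factor of inflammatory and metabolic genes, rose 10.3-fold, with 20.7% of its exons overlapped on the other strand. Fos and Jun, the classic early genes, were lower with LPS, Fos at 145, 126 and 137 and 46.3, 45.2 and 42.6 CPM and Jun at 109.8, 131 and 119.6 and 52.2, 39.0 and 38.8 CPM. Egr2 fell from 16.6 ± 1.08 to 2.05 ± 0.240 CPM and Klf2, a factor that restrains inflammatory genes, 3.26-fold.

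Enzymes that make nitric oxide and itaconate were among the most strongly induced. Nos2, the inducible nitric oxide synthase, was at 4.05, 1.34 and 5.50 CPM with vehicle and 5867, 5812 and 6099 CPM with LPS, a log2 fold change of 10.65 ± 0.29 (adjusted p = 5.78e-11), and Acod1, which makes itaconate from aconitate, went from 133, 69.6 and 124 to 11783, 12470.5 and 12664 CPM. Replicate 2 was lowest of the vehicle libraries for both. Slc7a2, an arginine transporter, rose from 0.617 ± 0.227 to 300.4 ± 25.2 CPM. Ass1, which recycles citrulline toward arginine, rose 9.72-fold and Gch1, the first enzyme of tetrahydrobiopterin synthesis, 6.77-fold. Asl, the enzyme after Ass1 in that recycling, was called lower. The later enzymes of tetrahydrobiopterin synthesis and recycling, Pts, Spr and Qdpr, fell, with log2 fold changes of -0.62 ± 0.11, -1.61 ± 0.12 and -0.84 ± 0.10. Arg2, a mitochondrial arginase, rose from 0.830 ± 0.210 to 30.7 ± 1.42 CPM, with 28.1% of its exons overlapped on the other strand. Arg1 had 3 counts over the vehicle libraries and 14 over the LPS libraries and was not tested. In the list as a whole 7 of 12 tested members rose and 4 fell.

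Genes of prostaglandin and leukotriene synthesis and sensing changed in both directions. Of 15 members 7 rose and 8 fell, and with library totals 5 rose and 9 fell. Ptgs2, the inducible cyclooxygenase 2, went from 1.35, 0.926 and 0.886 to 1518, 1775 and 1815 CPM, and Ptges, the inducible prostaglandin E synthase, from 2.93, 2.47 and 2.84 to 1251, 1494 and 1517 CPM. Pla2g4a, the phospholipase that frees arachidonic acid, rose 12.7-fold. The 5 leukotriene and thromboxane enzyme genes of the list, Alox5, Alox5ap, Lta4h, Ltc4s and Tbxas1, were all lower (the grouping was made after the values were seen), from -0.59 for Ltc4s to -1.57 for Lta4h on the log2 scale. The other lower members, also named after the values were seen, lie on the prostaglandin side, with log2 fold changes of -1.73 for Ptgs1, the constitutive cyclooxygenase 1, -2.14 for Ptger2, a prostaglandin E2 receptor, and -2.54 for Hpgd, which breaks prostaglandins down. The call for Ltc4s, with 26.4% of its exons overlapped on the other strand, was lost without LPS replicate 3.

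Genes of energy metabolism moved differently from pathway to pathway. In glycolysis 11 of 20 members rose and 4 fell (median 0.42), but with library totals 6 rose and 10 fell (median -0.33). Pfkfb3, which makes the activator of phosphofructokinase, stood out, going from 38.0, 28.9 and 40.5 to 1545, 1617 and 1628 CPM. The glucose transporter gene Slc2a1 rose 5.20-fold and the hexokinase gene Hk1 3.61-fold, while Gpi1, the next enzyme, fell 1.79-fold. In the tricarboxylic acid cycle 2 of 24 members rose and 12 fell (median -0.24), 1 and 23 with library totals. Within this list the isocitrate dehydrogenase genes Idh1, which encodes the cytosolic form, and Idh2 fell most. Idh1 went from 198, 213 and 201 to 35.5, 39.7 and 42.2 CPM and Idh2 from 49.4 ± 5.18 to 15.7 ± 1.55 CPM. Of 46 nuclear-encoded genes of oxidative phosphorylation 25 rose and 8 fell, by small steps (median 0.24), and with library totals 2 rose and 41 fell (median -0.50). Cycs, cytochrome c, rose 6.45-fold and stayed higher on both scales. Fatty acid oxidation genes fell in 18 of 25 tested cases and rose in 5 (median -0.93). Pparg, the lipid-sensing nuclear receptor, fell from 39.3, 54.1 and 44.7 to 4.43, 4.50 and 3.76 CPM, and the mitochondrial enzyme genes Acadm and Hadh fell 4.57-fold and 4.65-fold. Among the 5 that rose were Eci2, which had the smallest p-value of the called members, and Acaa1a. Cpt1a, the carnitine transferase that admits fatty acids to mitochondria, was at 209, 171 and 192 and 181, 178 and 178 CPM and was not called (adjusted p = 0.18), a call that was made without vehicle replicate 2 (log2 fold change -0.17) and with library totals.

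Cholesterol synthesis genes rose in 13 of 24 tested cases and fell in 3 (median 0.60), but with library totals 7 rose and 11 fell (median -0.15). Acat2, an early enzyme, went from 4.53 ± 1.27 to 20.2 ± 1.73 CPM, while Dhcr7, the last step, fell from 14.2, 16.7 and 13.8 to 1.35, 3.45 and 2.86 CPM. Among genes of cholesterol handling and the liver X receptor (LXR), 6 of 22 rose and 14 fell, and with library totals 1 and 19. Ch25h, which makes 25-hydroxycholesterol, rose from 0.930, 0.618 and 1.03 to 164, 163 and 167 CPM. Abca1, the exporter of cholesterol to apolipoproteins, was at 435, 333 and 417 CPM with vehicle and 584, 551 and 548 CPM with LPS, a log2 fold change of 0.51 ± 0.13 that was -0.24 and not called with library totals. Lipa, lysosomal acid lipase, fell from 1508, 1737 and 1552 to 249.6, 291 and 295 CPM, and Npc1, which moves cholesterol out of lysosomes, fell 3.75-fold. Scd2, a fatty acid desaturase, fell from 88.8 ± 6.37 to 12.9 ± 0.565 CPM.

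**Figure D3:**
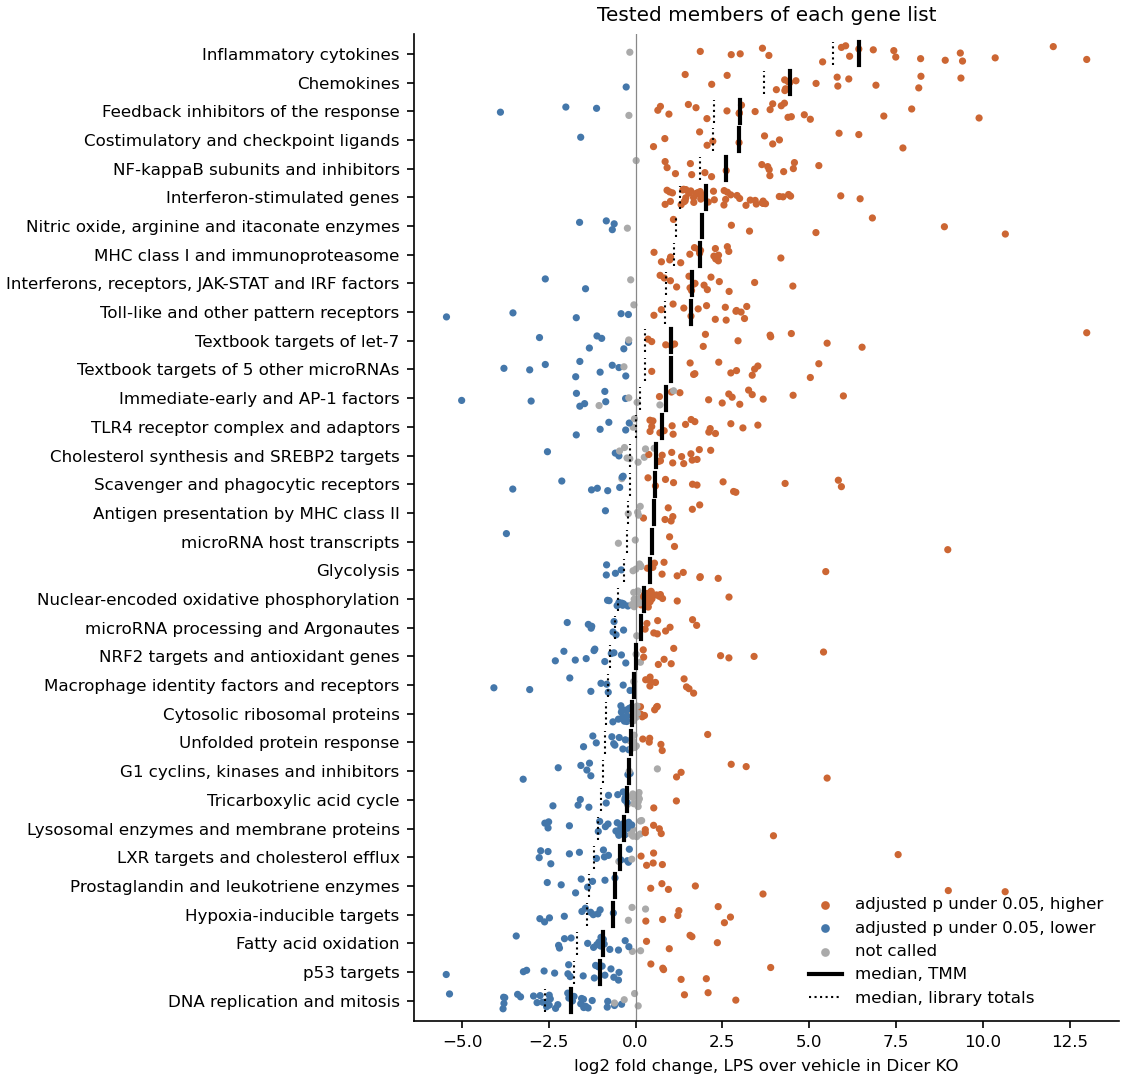
Log2 fold change with LPS in Dicer KO macrophages (horizontal axis) for the tested members of 34 gene lists (rows, ordered by median, with small vertical offsets); points are genes, coloured by call, solid ticks are medians with TMM scaling and dotted ticks medians with library totals. Cytokines and chemokines lie farthest to the right, and genes of DNA replication and mitosis farthest to the left.

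Most genes for antigen presentation and contact with T cells were higher with LPS. All 18 genes of MHC class I and the immunoproteasome were higher (median 1.86), and with library totals 16 were higher and 1 lower. Nlrc5, the class I transactivator, went from 139 ± 22.5 to 894 ± 21.3 CPM and Psmb10, an immunoproteasome subunit, from 133 ± 8.09 to 652 ± 7.63 CPM. H2-Q7 rose 18.2-fold, in a family whose close copies can share reads. For MHC class II 7 of 12 members rose and 1 fell, and with library totals 4 rose and 6 fell. Ciita, the class II transactivator, was at 4.42, 4.37 and 4.48 CPM with vehicle and 8.86, 9.38 and 8.73 CPM with LPS. Costimulatory and checkpoint genes rose in 12 of 13 cases (median 2.98). Cd40, the receptor for T cell help, was at 12.4, 9.01 and 11.9 CPM with vehicle and 2254, 2351 and 2333 CPM with LPS, 208-fold. Icam1, an adhesion ligand, rose 17.7-fold, and Vsir, the checkpoint receptor VISTA, was the member that fell, from 343 ± 22.7 to 115 ± 11.4 CPM.

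Pattern receptors and inflammasome genes rose in 15 of 21 cases and fell in 5. Casp4, which senses LPS inside the cell, rose from 62.4 ± 8.32 to 574 ± 10.3 CPM and Casp1 from 180.4 ± 7.19 to 1082 ± 34.5 CPM. Tlr1 rose 6.10-fold. Tlr13, a sensor of bacterial ribosomal RNA, fell from 389, 417 and 405 to 31.8, 35.8 and 37.0 CPM, and Tlr5, the flagellin receptor, from 155 counts to 2 over 3 libraries. Scavenger and phagocytic receptors split, with 12 of 21 higher and 8 lower, and 9 and 11 with library totals. Clec4e, the receptor Mincle, rose from 65.6, 47.3 and 60.9 to 3205, 3430.0 and 3321 CPM and Msr1, a receptor of modified lipoproteins, 7.40-fold. Cd36, a second such receptor, fell from 751, 895 and 808 to 423, 483 and 499.9 CPM, Mrc1, the mannose receptor, 2.41-fold and Clec7a, the glucan receptor Dectin-1, 4.37-fold.

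Genes that define macrophages moved in both directions, with 9 of 19 higher and 9 lower, and 4 and 14 with library totals. Spi1, which encodes the lineage factor PU.1, rose from 257, 296 and 272 to 863, 880.3 and 881 CPM. Cebpa, a factor of myeloid differentiation, fell from 71.6, 81.7 and 76.2 to 4.73, 3.83 and 4.97 CPM, 16.9-fold, and Mef2c from 112, 107 and 111 to 15.8, 12.5 and 11.5 CPM. Lysosomal genes fell in 24 of 38 cases and rose in 6 (median -0.32), 35 and 1 with library totals. Tfeb, a regulator of lysosomal genes, fell from 47.9 ± 7.15 to 7.81 ± 0.266 CPM, and Ctsc, a protease that activates granule enzymes, rose 15.7-fold and was the single member higher with library totals. Among antioxidant genes 10 of 23 rose and 11 fell, and with library totals 6 and 15. Sod2, the mitochondrial superoxide dismutase, rose from 43.9, 42.5 and 45.0 to 1878, 1864 and 1857 CPM, Prdx5, a peroxiredoxin, rose 10.6-fold, and Gsr, glutathione reductase, rose 5.45-fold.

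Genes of DNA replication and mitosis fell in 33 of 40 cases, 29 of them at least 2-fold, with a median log2 fold change of -1.87. Kif23, a mitotic kinesin, went from 26.4, 37.0 and 30.2 to 0.451, 1.13 and 0.677 CPM, and Mcm2, a subunit of the replicative helicase, from 16.2, 22.3 and 17.0 to 1.05, 1.50 and 1.35 CPM. The 3 members that rose, on both scales, were Ccne1, the cyclin of S phase entry, by 7.39-fold, Tpx2, a spindle factor, by 4.25-fold, and Mki67, a proliferation marker, by 2.65-fold. Of the D-type cyclins, Ccnd1 fell from 208, 241 and 229 to 23.5, 24.3 and 24.0 CPM, with 23.4% of its exons overlapped on the other strand, and Ccnd2 rose from 20.1, 12.5 and 18.3 to 818, 755 and 766 CPM. Targets of p53 fell in 18 of 24 cases and rose in 6 (median -1.02). Sesn1, a stress-induced inhibitor of mTORC1, fell from 112, 124 and 114 to 2.93, 2.25 and 2.79 CPM, 43.9-fold, while the death receptor gene Fas rose 14.8-fold, Mdm2, the p53 ligase, 4.10-fold and Cdkn1a, the kinase inhibitor p21, 2.48-fold. Cytosolic ribosomal protein genes changed within a narrow range, from -0.65 to 0.62 on the log2 scale, with 7 of 49 higher and 21 lower, and none higher and 49 lower with library totals.

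In the remaining lists members moved in both directions. Targets of hypoxia-inducible factors rose in 7 of 21 tested cases and fell in 11. Hif1a, the oxygen-regulated subunit, rose from 82.5, 81.2 and 82.8 to 477, 494 and 481 CPM, and Egln3, a hydroxylase that marks it for decay, fell from 21.3, 5.61 and 23.5 to 3.30, 2.40 and 1.81 CPM. In the unfolded protein response 6 of 22 rose and 10 fell, and with library totals 1 and 19. Ppp1r15a, a phosphatase subunit that restores translation, rose 4.22-fold and Pdia4, an enzyme of protein folding, fell 2.83-fold. Of 15 tested G1 cyclins, kinases and inhibitors 5 rose and 8 fell.

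Genes around the microRNA pathway also changed. Mir155hg, the host transcript of miR-155, went from 0.233, 0.103 and 0.0933 to 80.1, 76.0 and 74.4 CPM, and of the 6 host transcripts tested 3 rose and 1 fell, 2 and 3 with library totals. The 2 arms that Dicer would cut from it, given by RefSeq on GRCm38.p6 at chr16:84714143-84714165 and chr16:84714182-84714202 on the plus strand, are shown with the seed, bases 2 to 8, in capitals.
mmu-miR-155-5p: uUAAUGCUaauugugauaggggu
mmu-miR-155-3p: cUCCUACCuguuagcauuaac
Mature microRNAs were not measured here. Of the textbook targets of miR-155 in the lists, Socs1 and Cebpb rose as given above, Inpp5d, a phosphatase that restrains PI3K signalling, fell from 233, 238 and 233 to 67.4, 70.8 and 74.4 CPM, and Bach1, a repressor of heme oxygenase, was at 288, 244 and 274 CPM with vehicle and 238, 211 and 214 CPM with LPS. Pdcd4, a textbook miR-21 target, fell from 18.1 ± 0.0863 to 1.30 ± 0.218 CPM. Among textbook let-7 targets 14 of 21 tested rose and 6 fell (11 and 9 with library totals), and among those of 5 other microRNAs 12 of 22 rose and 9 fell (11 and 10). Igf2bp2, an RNA-binding let-7 target, rose 3.86-fold and Hmga2, a chromatin protein, fell from 117, 161 and 136 to 50.2, 54.3 and 59.8 CPM. Genes of microRNA processing and the Argonautes rose in 9 of 18 tested cases and fell in 8, and with library totals 3 rose and 13 fell. Ago3 rose 3.38-fold, Ago2, the slicing Argonaute, fell from 166, 166 and 171 to 72.3, 67.0 and 69.9 CPM, and Tnrc6b, a silencing partner of the Argonautes, fell 3.92-fold.

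The same stimulus in control macrophages gave 5258 genes higher (38%) and 5690 lower (41.1%). Of the 9633 genes called in both genotypes 9382 had the same direction. The difference of the responses, tested as an interaction, was called for 2068 genes with a higher log2 response in Dicer KO (14.9%) and 2602 with a lower one (18.8%), and at 2-fold or more for 362 (2.62%) and 577 (4.17%). With library totals the counts were 996 (7.2%) and 5137 (37.1%).

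**Figure D4:**
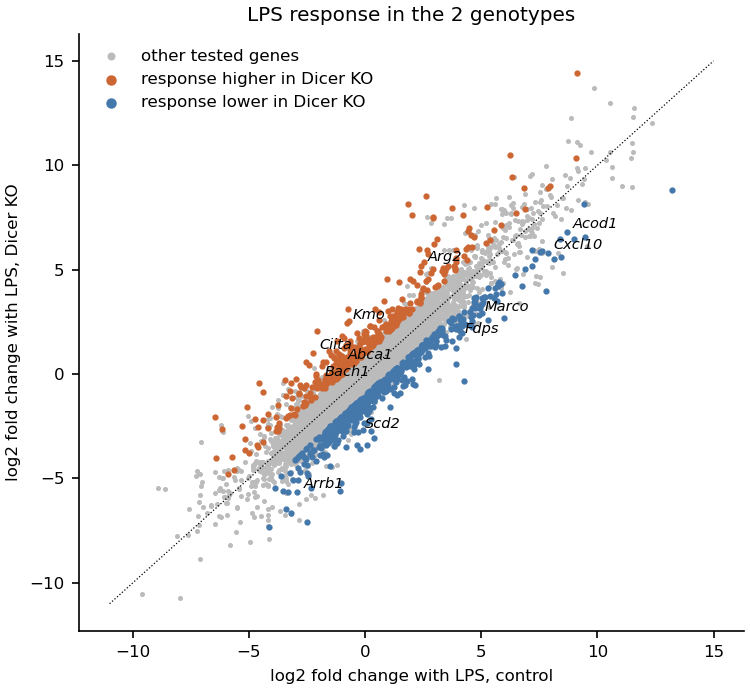
Log2 fold change with LPS in control (horizontal) and Dicer KO macrophages (vertical) for all tested genes, with an identity line; coloured genes have an interaction at adjusted p under 0.05 and a difference of at least 1 on the log2 scale. Most genes lie along the line, and coloured genes above and below it number 362 and 577.

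Among the 34 lists the interferon-stimulated genes had the largest share of members that differed in 1 direction, with a lower log2 response in Dicer KO for 47 of 50 and a higher one for none (median difference -1.17). With library totals all 50 were lower. Summed over the list, control libraries were at 4016 to 4618 CPM with vehicle and 40451 to 45796 CPM with LPS, and Dicer KO libraries were above the control libraries in both treatments, as given above. Ifi44 had a mean of 6.63 and 257 CPM in control and 109 and 660.3 CPM in Dicer KO, a log2 difference of the responses of -2.68 ± 0.27 (adjusted p = 4.20e-05). Cxcl10 followed the same pattern, at 11.1 and 2572 CPM in control against 134 and 7482 CPM, a difference of -2.05 ± 0.37. Without Dicer KO vehicle replicate 2 and control vehicle replicate 3, which each stood apart from their groups, all 50 genes of the list had a lower response.

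Cholesterol synthesis genes had a lower response in 21 of 24 tested cases and a higher one in none (median difference -1.53). Their summed level with LPS was 1200.3 to 1489 CPM in Dicer KO and 2424 to 2587 CPM in control, and with vehicle 748 to 1059 and 560.0 to 842 CPM. Fdps, which makes farnesyl diphosphate, rose 4.02 on the log2 scale in control and 1.77 in Dicer KO, a difference of -2.25 ± 0.32. Scd2 had a difference of -2.48 ± 0.25. Abca1 had a control log2 fold change of -1.02 and a difference of 1.53 ± 0.18 (adjusted p = 7.07e-05), and its opposite direction in the 2 genotypes was seen with TMM scaling but not with library totals, where its Dicer KO value was -0.24.

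Ciita moved in opposite directions, rising in Dicer KO and falling from 9.90 to 2.09 CPM in control, a difference of 3.27 ± 0.18 (adjusted p = 9.23e-10). Kmo, an enzyme of the kynurenine pathway, rose from 1.94 ± 0.912 to 10.8 ± 0.790 CPM in Dicer KO and had a control log2 fold change of -0.80, a difference of 3.25 ± 0.36. Among the other largest differences at 5 CPM or more, Spsb1, a substrate adaptor of ubiquitin ligases, rose from 0.645 ± 0.112 to 48.9 ± 3.48 CPM in Dicer KO and from 0.748 to 5.88 CPM in control, a difference of 3.28 ± 0.35. Olfr56, which carries an olfactory receptor name, rose from 3.12 ± 0.650 to 57.8 ± 3.64 CPM in Dicer KO and from 0.301 to 33.3 CPM in control, a difference of -2.56 ± 0.28. Bach1 fell in control to 44.9 CPM from 182 CPM and kept most of its level in Dicer KO, a difference of 1.73 ± 0.10. Arg2 and Il1b had larger responses in Dicer KO, by 2.78 ± 0.29 and 2.07 ± 0.49. Smaller rises than in control were seen for Acod1, Socs1 and Marco, a scavenger receptor, with differences of -1.86 ± 0.28, -1.84 ± 0.27 and -2.06 ± 0.14. Arrb1, the signalling adaptor beta-arrestin 1, fell from 214, 225 and 220.2 to 4.13, 4.65 and 4.14 CPM and by more than in control, a difference of -2.75 ± 0.15. NF-kappaB subunits and inhibitors had a higher response in 12 of 17 cases and a lower one in none, with a median difference of 0.46 (9 and 2 with library totals). Lysosomal genes had a higher response in 18 of 38 cases and a lower one in 5, but 3 and 11 with library totals. Tnf had a difference of -0.61 ± 0.13 (adjusted p = 0.0013). Nos2 reached a mean of 3033 CPM in control and 5926 CPM in Dicer KO with LPS, from 1.02 and 3.63 CPM, and its difference of -0.87 ± 0.49 was not called (adjusted p = 0.212) but was -1.25 and called without Dicer KO vehicle replicate 2 (adjusted p = 0.000191).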

How the data were processed

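Messenger RNA of 12 macrophage samples (4 groups of 3) was sequenced. The authors deposited 1 table of raw counts per library and gene. The submitters' processing notes name STAR 2.5, DESeq2 and the builds mm10 and GRCm38.p5, without their roles. How reads were counted, and whether by strand, is not stated in the labels or files. Rows that name no gene were left out (they cover reads outside genes, 45.8% to 46.8% of each table as the no-feature row). Of 46078 identifiers 45229 matched GENCODE M21, which gave symbols and coordinates on GRCm38, and the unmatched held 0.141% of the counts.

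All 12 libraries entered 1 fit in edgeR 4.0.16 (R 4.3.3), with a mean per group, TMM scaling, filterByExpr and robust quasi-likelihood tests with Benjamini-Hochberg adjustment over 13837 genes. Calls are at an adjusted p under 0.05. The fit was tested on simulated data. CPM uses the TMM-adjusted library size. Errors are SDs over 3 libraries or SEs of log2 fold changes. A group at 0 was given a floor of 3 counts over its 3 libraries, which covers counting error only. Exon overlap with the other strand is from GENCODE.

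Genes are named by rule: the 15 largest changes each way at 5 CPM or more without overlap of the groups, the 8 largest interactions each way, and in each of 34 lists the 4 smallest p-values, the 2 largest changes and members against the majority, with 17 genes always followed. Predicted and unnamed genes were not named, and some genes that the rule allows are not reported here. Others are said to be chosen after their values were seen. The members, lists and promoter motifs were chosen with earlier results of these data known. Alternatives were RLE factors, library totals, other filters, DESeq2 1.42.0, a replicate block, the Dicer KO libraries alone and leaving out libraries.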

Additional observations from a re-analysis of the deposited data

Results flagged for a closer look

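For the genes below the log2 response to LPS differed between Dicer KO and control macrophages by 1 or more, with an adjusted p under 0.05 for the interaction in edgeR's quasi-likelihood test. Values are the log2 response of Dicer KO minus that of control. Genes with 3 or fewer counts in any of the 4 groups were left out here, which does not mean that they responded alike. Cd38 and Syt7 were left out by this limit, though they ranked 1 and 2 for a higher response in Dicer KO. Pald1 and Bmyc, also left out, ranked 2 and 3 for a lower one. Rises were larger in Dicer KO for Arg2 (2.78), Il1b (2.07), Lck (1.34), Pdgfrb (1.10), Pfkfb3 (1.09), Ppp1r15a (1.05), Ptges (1.05), Slc7a2 (1.02), Spsb1 (3.28) and Tpx2 (1.14). Rises were smaller in Dicer KO for Acat2 (-1.76), Acod1 (-1.86), Ccl5 (-1.26), Ccnd2 (-1.81), Cxcl10 (-2.05), Fdps (-2.25), Gbp5 (-1.72), Ifi205 (-2.52), Ifi44 (-2.68), Kdr (-1.84), Marco (-2.06), Olfr56 (-2.56) and Socs1 (-1.84). Falls were larger in Dicer KO for Arrb1 (-2.75), Cebpa (-1.54), Dhcr7 (-1.52), Scd2 (-2.48), Sesn1 (-1.59) and Tfeb (-1.20) and smaller for Bach1 (1.73), Hmga2 (1.28), Hpgd (2.05) and Irf4 (1.60). The fitted direction was opposite in the 2 genotypes for Abca1 (1.53), Ciita (3.27) and Kmo (3.25), but not for Abca1 with library totals, where its Dicer KO value was -0.24 and not called. The calls for Lck, Pdgfrb and Tpx2 were lost with library totals and without 8, 10 and 9 of the 12 libraries in turn (adjusted p up to 0.160, 0.188 and 0.0977). Lck passed only without control vehicle replicate 3, control LPS replicate 1, Dicer KO vehicle replicate 2 or Dicer KO LPS replicate 3, Pdgfrb only without vehicle replicate 3 of either genotype, and Tpx2 only without a control vehicle library. Hpgd did not pass without Dicer KO LPS replicate 2 (0.0520). No test for a single outlying value was applied to groups of 3 libraries.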

How the results depend on the processing

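Library totals in place of TMM moved the counts of genes by over 1.5 times, to 2638 higher and 9623 lower, to 1514 and 6130 at 2-fold or more, and to 996 higher and 5137 lower for the difference from control. The share of calls that were higher was 46.7% with TMM, 21.5% with library totals and 50.1% with RLE factors. Under the other alternatives the counts stayed within 1.5 times, with only the Dicer KO libraries for the 4 counts of that genotype alone. Leaving out 1 library at a time gave 4996 to 5227 higher, 5651 to 5966 lower, 2575 to 2646 and 3168 to 3223 at 2-fold or more, and 1762 to 2213 higher and 2256 to 2811 lower for the difference. With library totals the median log2 fold change turned negative for glycolysis (-0.33), oxidative phosphorylation (-0.50), cholesterol synthesis (-0.15), scavenger receptors (-0.18), MHC class II (-0.21), NRF2 targets (-0.73), microRNA processing (-0.59) and microRNA host transcripts (-0.26), and the values of Abca1 (-0.24), Lyz2 (-0.33) and Pf4 (-0.44) changed sign. The medians of macrophage identity genes and NRF2 targets lie near 0. The first turned positive with RLE factors (0.0239), with DESeq2 (0.0242) and without Dicer KO vehicle replicate 1, and ranged from -0.139 to 0.0281 over the fits without 1 library. The second turned negative without a filter on low counts (-0.0132) and without Dicer KO vehicle replicate 3, and ranged from -0.00499 to 0.0258. Leaving out 1 library moved the log2 fold change of some genes with few reads in a group by over 1.5 times in fold, with no change of call. It was 13.50 for Edn1 and 3.31 for Ifnb1 without Dicer KO vehicle replicate 1, 7.71 for Lck without replicate 2, 6.97 for Pdgfrb and 14.55 for Slamf1 without replicate 3, and -8.78 for Sox4 without Dicer KO LPS replicate 2. The low counts behind Etl4, Vash2, Dnah11 and Serpinb2 likewise come from 1 or 2 libraries. Deviations from the group means correlated at 0.113, 0.0591 and -0.0287 between Dicer KO samples of the same number. Groups of 3 libraries are too small for these values to show whether the numbers pair samples. With the replicate number as a block, 5157 genes were higher and 5853 lower, and no LPS call of the 191 named genes changed. Of the 38 differences from control checked, those of Lck (adjusted p = 0.0513), Pdgfrb (0.0748) and Tpx2 (0.0607) were lost with the block. Leaving out Dicer KO vehicle replicate 2 together with control vehicle replicate 3 was added after seeing the data. The cause of these changes was not tested, beyond the scaling that each alternative sets.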

Other observations

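Genes that share the letter start of their symbols, as a rough grouping made after the values were seen, add some families that the lists leave out. Among the 41 symbol starts with 25 or more tested genes, the kinesins (Kif) had the lowest median log2 fold change with LPS, -1.47, with 19 of 30 lower and 7 higher. The zinc finger genes named Zfp fell in 179 of 325 cases and rose in 72 (median -0.38). Subunits of the small mitochondrial ribosome (Mrps) fell in 19 of 29 cases and rose in 2 (median -0.40). In the other direction, interleukins and their receptors (Il) rose in 36 of 46 cases (median 3.07), subunits of the Mediator complex (Med) in 21 of 30 (median 0.47), genes of ubiquitin transfer (Ube) in 21 of 35 (median 0.38) and protein phosphatase genes (Ppp) in 36 of 57 (median 0.54). With library totals every one of these medians lies about 0.75 lower, so that the last 3 turn negative.

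Of 302 long intergenic RNAs tested, 26.8% rose and 43.4% fell, and of 281 processed pseudogenes 28.8% rose and 11.0% fell. Among all genes tested, 58 had no count in the 3 vehicle libraries.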
